A study of Homo sapiens with 6 samples.

Results

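The genes described here build and run the primary cilium, and they were followed in RMS13 cells after knockdown of GLI1. The 39 genes were taken by symbol from the table of 25702 genes and cover intraflagellar transport, the BBSome, the transition zone and regulators of Hedgehog signalling that sit in the cilium. All 39 were found in the table and had a mean normalised read count of 10 or more, so each was tested. RMS13 is an established human rhabdomyosarcoma line, a tumour of skeletal muscle type. The siGLI1 group held 3 libraries from cells transfected with an siRNA against GLI1, and the siNT2 group held 3 libraries from cells given a siRNA labelled non-targeting. The knockdown was left for 72 h, and both groups grew in RPMI with 10% fetal bovine serum. The data come from 1 cell line and 1 GLI1 siRNA group, and the siRNA sequence is not given in the labels. Values are normalised read counts, that is, reads per gene divided by a size factor for each library, and each fold change is the difference, siGLI1 minus siNT2, of log2(value + 1). A gene was called where the adjusted p (limma, Benjamini-Hochberg over 15622 genes) was under 0.05. The labels do not say whether replicates were separate cultures, so each p measures the spread between these libraries.

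The primary cilium is a single antenna of microtubules that projects from the basal body. Intraflagellar transport (IFT) trains carry cargo along it: the IFT-B complex moves outward with a kinesin, and the IFT-A complex returns with a dynein. The transition zone at the base acts as a gate, and the BBSome carries membrane receptors out of the cilium. In vertebrates Hedgehog signalling passes through this organelle, because the receptor PTCH1, the transducer SMO and the GLI proteins move in and out of it.

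The libraries held 13673977 to 18947614 reads. The targeted gene, GLI1, had 579.9, 905.8 and 1274.1 normalised reads in the siGLI1 libraries, against 11962.5, 17836.9 and 12774.1 in the siNT2 libraries (6.48% of the siNT2 mean, 95% interval of the log2 fold change -4.67 to -3.32, limma adjusted p = 0.000425). The skeletal muscle markers MYOD1, MYOG and CDH15 were abundant in both groups, while MYF5, MYF6 and PAX7 were at or near 0 in both. The summed level of 14 muscle lineage markers was 83405.4 to 127535.5 in siGLI1 and 58991.7 to 75878.2 in siNT2. Of the 11 tested, 6 were called higher and 0 lower. ACTC1, a large part of the sum, averaged 38210 in siGLI1 and 12390 in siNT2. MYOD1, CDH15 and MYL4 had log2 fold changes of -0.04, -0.02 and -0.50 and were not called. Of 20 markers of multiciliated cells, 8 reached a mean of 10 and 7 averaged 3 reads or fewer. CCDC40 and TPPP3 were the most abundant, at means of 727.5 and 533.4 in siGLI1 and 585.2 and 434.6 in siNT2, DNAH5 averaged 113.2 in siGLI1 and 63.74 in siNT2, and RSPH1, TEKT1 and SNTN were at or near 0 in both groups. Their sum was 1545.4 to 1881.5 in siGLI1 and 1265.5 to 1534.5 in siNT2. Epithelial markers summed to 105.8 to 107.7 in siGLI1 and 142.7 to 185.6 in siNT2, blood markers to 63.7 to 120.5 in siGLI1 and 54.2 to 99.4 in siNT2, and neural markers to 3201.9 to 3601.6 in siGLI1 and 2241.2 to 2467.6 in siNT2. The part of these shifts in the results below was not tested. In bulk RNA, fewer cells of a type and less RNA per cell cannot be told apart.

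In all, 5 of the 39 cilium genes fell in siGLI1 cells, and the rest were not called. TCTN2 and TMEM231 of the transition zone, BBS1 of the BBSome, IFT122 of IFT-A and IFT172 of IFT-B were lower, with log2 fold changes of -1.68 to -0.59. These 5 are 12.8% of the 39, against 8% of all tested genes called lower and 7.21% called higher (15.2% together). With limma 0 of the 39 rose and 1, KIF3A, was higher at an unadjusted p under 0.05. edgeR called 0 higher (background 7.57%) and the same 5 lower (background 7.68%), and DESeq2 called 0 higher (background 10.5%) and 9 lower (background 10.5%), adding B9D1, IFT20, IFT88 and TULP3. With a library left out, the number of cilium genes called lower by limma was 3, 1 and 7 without siGLI1 replicates 1, 2 and 3, against 5.09%, 2.29% and 10.9% of all tested genes. It was 1, 2 and 2 without siNT2 replicates 1, 2 and 3, against 2.87%, 5.18% and 4.36%. Same-numbered libraries of both groups share the stem of an identifier in the labels, which do not say what it marks. With the replicate number as a block, TCTN2 was called lower (limma adjusted p = 0.0205), against 3.25% of all tested genes, and the adjusted p was 0.0617 for IFT122, 0.0728 for BBS1, 0.084 for TMEM231 and 0.116 for IFT172. The median log2 fold change of the 39 was -0.28, against -0.01 for all tested genes, and 26 of the 39 lay below 0. In 15 genes the 3 siGLI1 libraries did not overlap the 3 siNT2 libraries, and in each of those 15 the siGLI1 side was the lower one. Among all tested genes 36.2% were apart, 18.8% in that direction and 17.4% in the other.

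**Figure D1:**
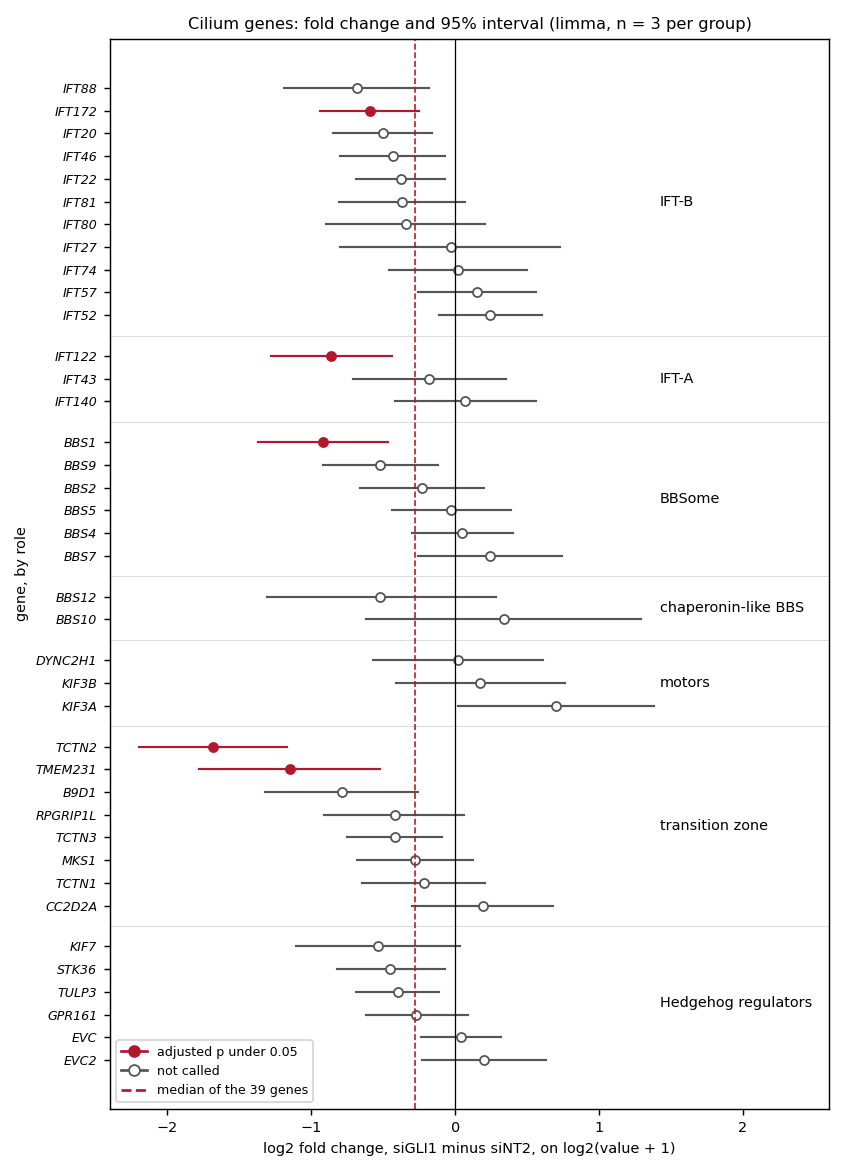
Log2 fold change (x axis, siGLI1 minus siNT2 on log2(value + 1)) with its 95% interval for each of the 39 cilium genes (y axis), ordered by role. Filled red points are the 5 genes with an adjusted p under 0.05, all on the negative side, and the dashed line is the median of -0.28.

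Many promoters of ciliary genes carry an X-box, the sequence bound by RFX transcription factors, so the promoter windows of the cilium genes were searched for it. RefSeq windows (GRCh38.p14, 250 bases before to 50 after the transcript start) matched 36 of the 39 genes, with some genes having several starts. The X-box was found, on either strand, in 5 of the 36 (13.9%), against 2.00% of the 11433 tested genes with a window. By window, it was in 5 of the 47 windows of the cilium genes (10.6%). The share was 1.45% of the windows of tested genes and 1.31% of all windows of this length. The 5 genes were IFT122, which fell, and TCTN1, TCTN3, B9D1 and IFT57, which were not called. The matches are shown in capitals with 10 bases on each side, 5′ to 3′ on the gene's strand, so that the shared pattern of inverted arms can be compared.
IFT122: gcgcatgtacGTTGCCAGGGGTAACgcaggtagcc
TCTN1: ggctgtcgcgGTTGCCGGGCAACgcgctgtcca
TCTN3: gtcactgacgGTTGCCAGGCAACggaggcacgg
B9D1: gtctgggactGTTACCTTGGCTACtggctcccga
IFT57: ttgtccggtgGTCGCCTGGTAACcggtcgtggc
These stretches lie in GRCh38.p14 as follows: IFT122 at chr3:129440202-129440236, plus strand, TCTN1 at chr12:110614119-110614151, plus strand, TCTN3 at chr10:95694120-95694152, minus strand, B9D1 at chr17:19378083-19378116, minus strand and IFT57 at chr3:108222405-108222437, minus strand. In IFT122 the match runs from base -12 to base 3 relative to the start, and in TCTN1 from base 1 to base 13. The arm GTTGCC alone, searched on both strands and overlapping the X-box, was in windows of 16 of the 36 genes (44.4%), against 16.8% of tested genes. By window, the arm was in 19 of the 47 (40.4%), against 12.6% of the windows of tested genes and 12.2% of all windows. It was present in 3 of the 4 called genes that had a window (BBS1, IFT122 and TMEM231, but not IFT172) and in 13 of the 32 that were not called. Among all tested genes with a window, 8.46% of the 1916 with the arm were called lower, against 8.1% of the 9517 without it. Higher calls were 6.99% and 7.54%, and the median log2 fold changes were -0.02 and 0.01. The GLI consensus GACCACCCA, also searched on both strands, was in 0 of the 36 genes, against 0.359% of tested genes. It was in 0 of the 47 windows of the cilium genes, against 0.253% of the windows of tested genes and 0.236% of all windows. At shares this small, a count of 0 in 36 genes cannot be told from the share over all tested genes. TCTN2 had no window and was not searched. A match describes letters in a window and does not show binding. The windows of TMEM231 and BBS1 are printed in full because both genes fell and both hold the GTTGCC arm, in capitals here. TMEM231 is at chr16:75556203-75556502, minus strand (the first of 2 listed starts) and BBS1 at chr11:66510385-66510684, plus strand, in GRCh38.p14.
TMEM231: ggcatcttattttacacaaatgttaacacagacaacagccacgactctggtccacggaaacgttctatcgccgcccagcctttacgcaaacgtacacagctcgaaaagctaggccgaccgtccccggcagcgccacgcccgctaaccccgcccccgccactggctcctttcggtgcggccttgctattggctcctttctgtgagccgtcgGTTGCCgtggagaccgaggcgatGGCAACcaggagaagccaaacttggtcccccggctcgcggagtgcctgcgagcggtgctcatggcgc
BBS1: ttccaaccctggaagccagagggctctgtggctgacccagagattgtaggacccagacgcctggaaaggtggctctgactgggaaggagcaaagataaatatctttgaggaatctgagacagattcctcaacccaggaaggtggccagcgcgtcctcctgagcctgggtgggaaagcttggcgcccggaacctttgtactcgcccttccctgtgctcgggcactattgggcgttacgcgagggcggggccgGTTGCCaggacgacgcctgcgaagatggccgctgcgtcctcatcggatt
In this TMEM231 window the arms start at base -40 and, on the opposite strand, at base -17, and no X-box was matched. Of the 229 tested genes with it, 12 were higher and 19 lower (8.3%), and of the 11204 without it 8.16% were lower. Their median log2 fold changes were -0.13 and 0.00.

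Genes of the transition zone held the largest decrease among the 39. Of 8, 2 fell (25%, against 8% of all tested genes) and 6 were not called, and the median log2 fold change was -0.42. TCTN2 encodes a tectonic protein of the transition zone complex that includes MKS1 and B9D1. It had 41.0, 50.1 and 69.1 normalised reads in the siGLI1 libraries, against 177.9, 173.4 and 158.7 in the siNT2 libraries. Each siGLI1 value was less than any siNT2 value, and the siGLI1 mean was 31.4% of the siNT2 mean. The log2 fold change was -1.68 (standard error 0.22, 95% interval -2.20 to -1.17, limma adjusted p = 0.00357), and the call held when any of the 6 libraries was left out (-1.88 to -1.51). TMEM231, a membrane protein of the same gate, had 24.8, 19.4 and 14.8 reads in siGLI1, against 41.7, 37.5 and 54.2 in siNT2. The groups did not overlap, but the counts were low, and the change of -1.15 (standard error 0.27, limma adjusted p = 0.0289) was no longer called without siGLI1 replicate 2, siNT2 replicate 1 or siNT2 replicate 3. Its value stayed between -1.32 and -0.97 over the 6 fits.

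B9D1, another component of the gate, lay just outside the threshold and is named after its values were seen. It had 57.2, 71.6 and 54.3 reads in siGLI1 and 87.8, 136.9 and 98.1 in siNT2, with no overlap (log2 fold change -0.79, limma adjusted p = 0.0547, DESeq2 adjusted p = 0.023). TCTN3, the tectonic with the highest count of the group, had 406.1, 348.6 and 374.3 reads in siGLI1 and 476.6, 477.7 and 555.8 in siNT2 (-0.42, 95% interval -0.75 to -0.09, limma adjusted p = 0.0886). The groups of TCTN3 did not overlap either, while its relative TCTN1 overlapped (-0.22, limma adjusted p = 0.452). Thus the tectonic genes had changes of -1.68, -0.42 and -0.22, and 1 of the 3 was called. MKS1 and the scaffold gene RPGRIP1L were at -0.28 and -0.42, and CC2D2A, which encodes a further gate protein, was at 0.19, none of them called.

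**Figure D2:**
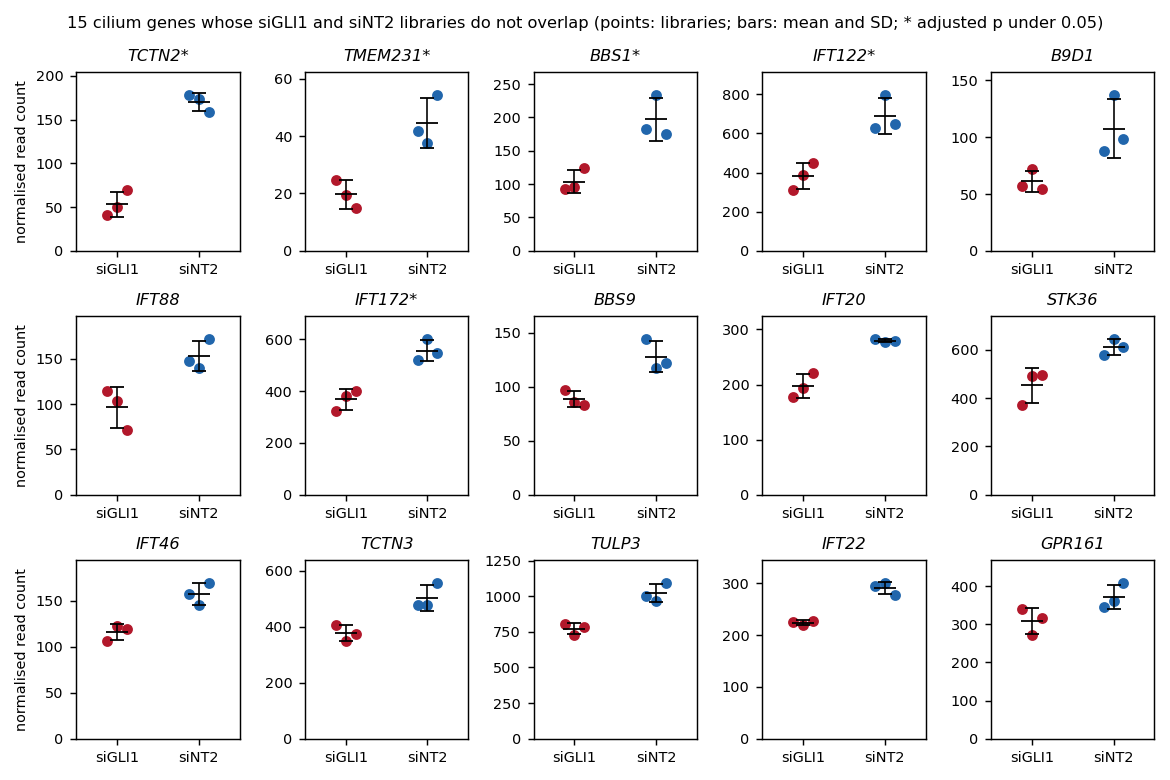
Normalised read counts (y axis, from 0) in each library (points) with the mean and SD (bars, n = 3) for siGLI1 (left, red) and siNT2 (right, blue), for the 15 cilium genes whose groups do not overlap. In every panel the siGLI1 points lie below the siNT2 points, and an asterisk marks the 5 called genes.

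Of 11 IFT-B genes, 1 fell and 10 were not called, with a median of -0.37. This is 9.09%, close to the 8% of all tested genes called lower. IFT172, the large peripheral subunit of the train, had 324.0, 380.3 and 402.0 reads in siGLI1 and 520.5, 600.4 and 547.0 in siNT2. The siGLI1 mean was 66.3% of the siNT2 mean (log2 fold change -0.59, standard error 0.15, limma adjusted p = 0.0343). Leaving out siGLI1 replicate 1 or 2, or any siNT2 library, removed the call, while the value stayed between -0.66 and -0.50. IFT20, which also works at the Golgi in sorting cilium cargo, had 178.2, 194.2 and 220.2 reads in siGLI1 and 282.2, 277.9 and 278.3 in siNT2 (-0.50, limma adjusted p = 0.0588, DESeq2 adjusted p = 0.0341). The siNT2 libraries of IFT20 were nearly equal and the siGLI1 libraries were all lower. IFT88, IFT46 and IFT22 also had groups that did not overlap, at -0.68, -0.43 and -0.38, with limma adjusted p-values of 0.0746, 0.107 and 0.0993.

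The remaining IFT-B genes overlapped between groups. IFT52, the core subunit with the highest count of the complex, had 849.9, 719.7 and 724.9 reads in siGLI1 and 649.0, 563.9 and 728.9 in siNT2 (0.24, 95% interval -0.11 to 0.60, limma adjusted p = 0.313). IFT80 and IFT81 were at -0.34 and -0.37, and IFT57, IFT74 and IFT27 at 0.15, 0.02 and -0.03. IFT27, a small GTPase subunit that links trains to BBSome exit, had 12.3 to 23.7 reads in siGLI1 and 12.8 to 21.3 in siNT2, so its interval of -0.80 to 0.73 was wide.

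IFT-A was represented by 3 genes, of which 1 fell (33.3%, against 8% of all tested genes). IFT122, a core subunit needed with TULP3 for receptor entry into the cilium, had 313.2, 385.4 and 449.4 reads in siGLI1 and 627.0, 795.1 and 647.5 in siNT2. The siGLI1 mean was 55.5% of the siNT2 mean (log2 fold change -0.86, standard error 0.18, 95% interval -1.28 to -0.44, limma adjusted p = 0.0198). The call was lost without siGLI1 replicate 2 or without any of the 3 siNT2 libraries, with values of -0.98 to -0.72 over the 6 fits. The other subunits were not called. IFT43 had 60.5, 53.2 and 67.2 reads in siGLI1 and 72.5, 83.2 and 52.6 in siNT2 (-0.18, limma adjusted p = 0.62), and IFT140 was at 0.07 (95% interval -0.42 to 0.56).

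Of 6 BBSome genes, 1 fell (16.7%, against 8% of all tested genes), and the median was -0.13. BBS1, the subunit that binds the GTPase ARL6 at membranes, had 92.9, 95.1 and 123.5 reads in siGLI1 and 182.3, 233.3 and 175.4 in siNT2. Its siGLI1 mean was 52.7% of the siNT2 mean (log2 fold change -0.92, standard error 0.19, limma adjusted p = 0.0201), and the groups were apart. The call was lost without siGLI1 replicate 1 or 2 or siNT2 replicate 1 or 2, with values of -1.05 to -0.79 over the 6 fits. In GENCODE 12.4% of BBS1 exon bases are also exon of ZDHHC24, and the strand setting of the read counting is not stated in the sources read here. Of the 39 genes, 16 share exon bases with another gene of the table, from 0.38% of their bases to the 12.4% of BBS1, and reads in those bases may be assigned to either gene.

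BBS9 had 97.2, 85.9 and 83.0 reads in siGLI1 and 143.8, 117.6 and 122.0 in siNT2, with groups apart (-0.52, limma adjusted p = 0.0803). BBS4, the BBSome subunit with the highest mean count, had 272.1, 265.8 and 229.1 reads in siGLI1 and 238.3, 235.3 and 266.3 in siNT2 (0.05, 95% interval -0.30 to 0.40). BBS2, BBS5 and BBS7 were at -0.23, -0.03 and 0.24, also without a call. The 2 chaperonin-like genes, whose products help assemble the BBSome, varied widely among the siGLI1 libraries. BBS10 had 266.7, 167.7 and 90.9 reads in siGLI1 and 154.8, 84.2 and 154.7 in siNT2 (0.34, 95% interval -0.62 to 1.29). BBS12 had 56.2, 26.6 and 22.7 reads in siGLI1 and 51.6, 41.6 and 47.8 in siNT2 (-0.52, 95% interval -1.31 to 0.28).

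Of the 3 motor genes none was called, against 15.2% of all tested genes. Each had a log2 fold change above 0 on the deposited values, although DYNC2H1 was at -0.18 with the GC trend removed. KIF3A, a motor subunit of the outward kinesin, had 403.9, 306.7 and 215.3 reads in siGLI1 and 202.0, 130.8 and 232.9 in siNT2. The groups overlapped, and the change of 0.70 had a 95% interval of 0.02 to 1.38 (limma adjusted p = 0.146). Its partner KIF3B had 1145.8, 936.4 and 686.4 reads in siGLI1 and 848.8, 597.4 and 1012.7 in siNT2 (0.17, limma adjusted p = 0.676). DYNC2H1, the heavy chain of the returning dynein, was at 0.02 (95% interval -0.57 to 0.61).

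None of the 6 ciliary regulators of Hedgehog signalling was called by limma, against 15.2% of all tested genes, and 2 had an unadjusted p under 0.05. TULP3, an adaptor that brings receptors including GPR161 into the cilium with IFT-A, had 803.5, 726.9 and 785.2 reads in siGLI1 and 1003.6, 965.5 and 1090.9 in siNT2. Its groups were apart, at -0.40 (95% interval -0.69 to -0.11, limma adjusted p = 0.0713), and DESeq2 called it lower (adjusted p = 0.0398). STK36, the human relative of the fly kinase Fused, had 369.3, 491.7 and 495.8 reads in siGLI1 and 578.7, 643.0 and 611.6 in siNT2, again apart (-0.45, limma adjusted p = 0.103). GPR161, a receptor that restrains the pathway, was at -0.27 with groups apart (limma adjusted p = 0.276). KIF7, a kinesin at the cilium tip that regulates GLI proteins, was at -0.54 (95% interval -1.11 to 0.03).

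EVC and EVC2 form a complex near the cilium base that acts downstream of SMO. EVC, the regulator with the highest count, had 1313.2, 1300.4 and 1238.5 reads in siGLI1 and 1216.7, 1351.9 and 1182.6 in siNT2. Its change was 0.04 with a 95% interval of -0.24 to 0.32, and that of EVC2 was 0.20 (-0.23 to 0.63). For comparison PTCH1, a gene induced by the pathway, had 601.5, 533.7 and 533.3 reads in siGLI1 and 2403.7, 2425.0 and 3005.5 in siNT2 (-2.22, limma adjusted p = 0.000277).

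Libraries of the same group differed along the GC content of the transcript, and the cilium genes followed this. Over the 39 genes, which share the same libraries and depth, Spearman's correlation of GC content with how far each library lay from the mean of its group was -0.74, -0.17 and 0.74 in siGLI1 replicates 1, 2 and 3 and -0.70, 0.88 and -0.71 in siNT2 replicates 1, 2 and 3. AT-rich genes such as KIF3A, BBS10, IFT80 and IFT81 had their lowest value of each group in siGLI1 replicate 3 and siNT2 replicate 2. For the GC correction, the trend of each library was taken from its deviation from the mean over both groups. It therefore also removed the difference between the groups along GC content. Over the 39 genes, Spearman's correlation of GC content with the log2 fold change was -0.32 before and 0.02 after. When the GC trend of each library was subtracted, 16 of the 39 were called lower (41%) and 1 higher (2.56%). Of all 14438 genes with a GC value, 16.7% were lower and 17.4% higher (34.1% together). The 16 included all 5 called without the correction, and the median stayed at -0.27.

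The 11 further genes called lower with the correction were IFT20, IFT22, IFT46, IFT80, IFT81 and IFT88 of IFT-B, BBS9, RPGRIP1L, TCTN3, STK36 and TULP3. IFT88, the subunit whose loss in the mouse blocks cilium formation, reached -0.87 (limma adjusted p = 0.00186), and RPGRIP1L -0.63 (limma adjusted p = 0.00158). Thus 7 of 11 IFT-B genes and 4 of 8 transition zone genes were lower on that scale (63.6% and 50%, against 16.7% of all genes). The gene called higher was KIF3A (0.49, limma adjusted p = 0.0264). B9D1 remained just outside (-0.61, limma adjusted p = 0.0538). With siGLI1 replicate 3 and siNT2 replicate 2 left out, a choice made after seeing the data, 10 of the 39 were called lower and 1 higher, against 15.1% lower and 14.3% higher among all tested genes.

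**Figure D3:**
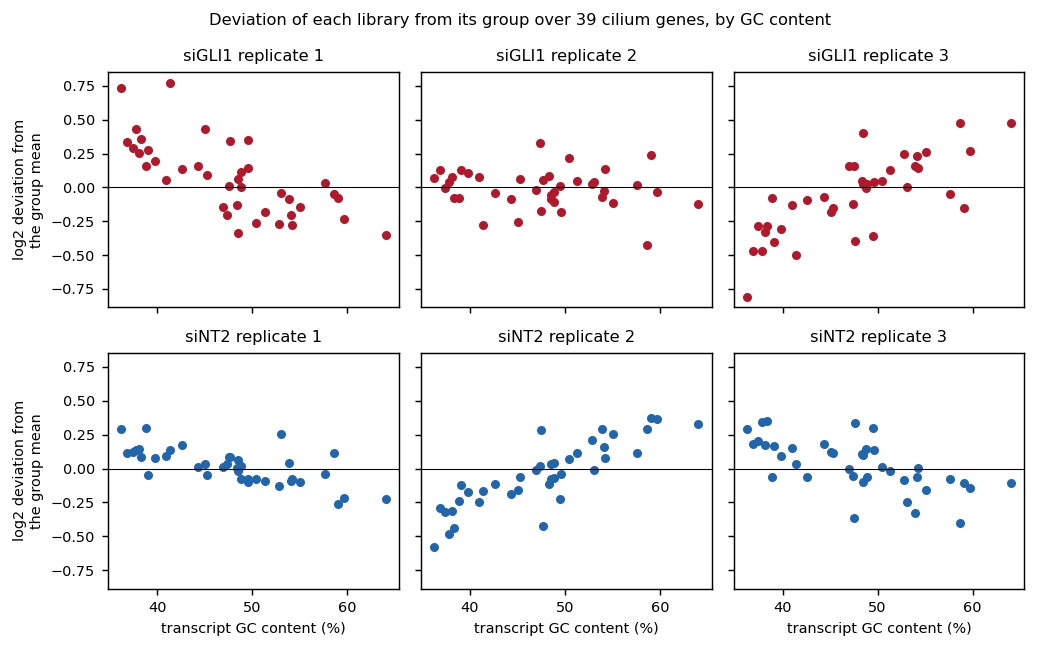
Deviation of each library from its group mean (y axis, log2) against transcript GC content (x axis, %) for the 39 cilium genes, with siGLI1 libraries above and siNT2 libraries below. The slope is positive in siGLI1 replicate 3 and siNT2 replicate 2 and negative in both replicates 1 and in siNT2 replicate 3.

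Per kb of transcript, the cilium genes covered a wide range of levels. IFT52 was the highest, at 435 ± 42 reads per kb in siGLI1 and 368 ± 46.9 in siNT2 (SD, n = 3 each), followed by TULP3 at 251 ± 13 in siGLI1 and 332 ± 20.9 in siNT2. The ranges of mean ± SD of IFT52 and TULP3 overlapped in siNT2 and not in siGLI1. IFT20, EVC and TCTN3 came next, at 184 ± 19.8, 200 ± 6.21 and 137 ± 10.5 in siGLI1 and 261 ± 2.22, 194 ± 13.9 and 184 ± 16.6 in siNT2. The lowest were DYNC2H1, IFT27, BBS12 and TMEM231, at 16.1 ± 3.77, 15.6 ± 5.22, 10.2 ± 5.33 and 4.6 ± 1.17 in siGLI1 and 16.0 ± 4.25, 15.8 ± 3.93, 13.7 ± 1.48 and 10.4 ± 2.03 in siNT2. DYNC2H1, IFT27 and BBS12 did not differ in level beyond their SD in siGLI1. The 5 called genes were spread over this range, with IFT122 at rank 9, IFT172 at 14, BBS1 at 27, TCTN2 at 33 and TMEM231 at 39 of the 39.

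**Figure D4:**
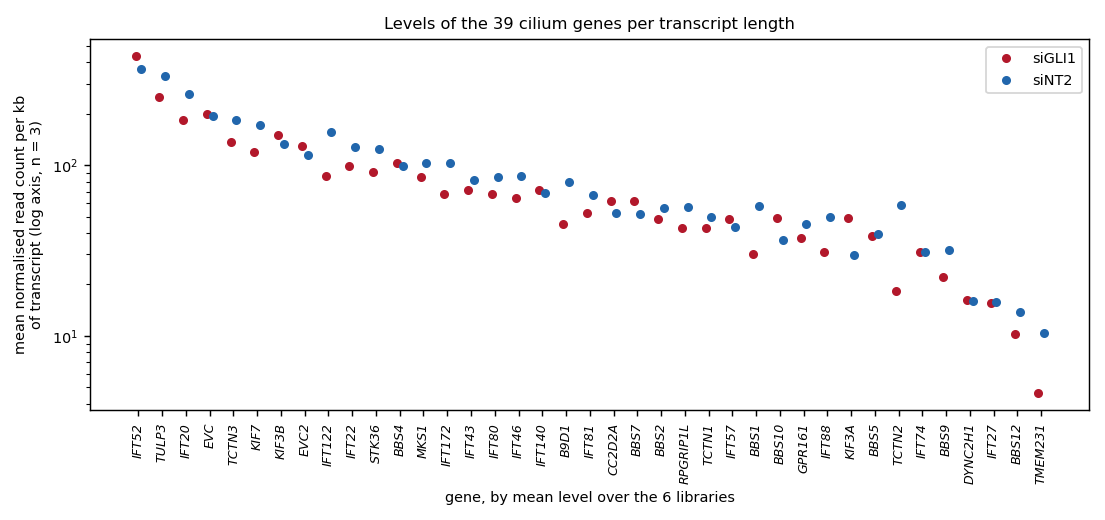
Mean normalised read count per kb of transcript (y axis, log scale, n = 3) for the 39 cilium genes (x axis, ordered by mean over the 6 libraries), with siGLI1 in red and siNT2 in blue. The widest gaps, with blue above red, are at TCTN2 and TMEM231.

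Further genes of the ciliary machinery were examined by list, and each count is to be read against the 8% of all tested genes called lower and 7.21% called higher. Of 25 other IFT, BBSome and motor genes tested, 4 fell (16%) and 21 were not called, with a median of -0.21. TRAF3IP1, an IFT-B subunit, had 287.3, 245.4 and 265.7 reads in siGLI1 and 579.8, 479.7 and 483.2 in siNT2 (-0.95, limma adjusted p = 0.00707). WDR19 of IFT-A fell by 0.90 (limma adjusted p = 0.0196), and the light and intermediate chain genes of the returning dynein, DYNLT2B and DYNC2I2, fell by 1.33 and 1.19 (limma adjusted p = 0.0189 and 0.0397). The counts of DYNLT2B were low, at 14.0, 17.4 and 14.8 reads in siGLI1 and 37.3, 55.8 and 31.1 in siNT2. The call of TRAF3IP1 was lost without siGLI1 replicate 2. WDR19 lost it without siGLI1 replicate 2 or siNT2 replicate 1 or 3, DYNLT2B without siGLI1 replicate 2 or siNT2 replicate 1 or 2, and DYNC2I2 without siGLI1 replicate 1 or 2 or siNT2 replicate 1 or 2. Of 19 other genes of the transition zone and inversin compartment, 3 fell, TMEM67, TMEM216 and TMEM218, with log2 fold changes of -1.03, -0.65 and -0.65 (limma adjusted p = 0.0356, 0.0449 and 0.045), which is 15.8%, and the median was -0.28. TMEM67 and TMEM218 lost the call in each of the 6 fits that left out a library, and TMEM216 in 5, all but that without siNT2 replicate 2. Of 21 basal body and ciliogenesis genes, MAPRE1, a microtubule end-binding protein, and CBY1 fell by 0.64 and 0.72 (limma adjusted p = 0.0273 and 0.0316). On the deposited values these are 9.52% of the list, close to the share over all tested genes, and the median was -0.26. MAPRE1 lost the call without siGLI1 replicate 2 or siNT2 replicate 1 or 3, and CBY1 kept it without siGLI1 replicate 3 and lost it in the other 5 fits. With the GC trend removed, 10 of the 21 basal body genes were lower (47.6%) and 0 higher, against 16.7% and 17.4% of all genes. On that scale 9 of the 25 other IFT, BBSome and motor genes were lower (36%) and 1 higher (4%). Of the 19 other transition zone and inversin genes, 7 were lower (36.8%) and 1 higher (5.26%).

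Ciliary membrane trafficking genes held changes in both directions, with 6 lower (23.1%) and 3 higher (11.5%) of 26 and a median of -0.26. ARL2BP, which binds the GTPases ARL2 and ARL3, had 244.1, 221.8 and 198.5 reads in siGLI1 and 910.3, 780.9 and 1041.4 in siNT2 (-2.03, limma adjusted p = 0.000596). ADCY3, the adenylyl cyclase that marks many neuronal cilia, had 1800.3, 1930.1 and 2106.6 reads in siGLI1 and 3510.6, 4011.2 and 3729.6 in siNT2 (-0.95, limma adjusted p = 0.00357). IQCE, which anchors the EVC complex, fell by 1.46 (limma adjusted p = 0.00736). In the other direction MCHR1, a receptor found in neuronal cilia, had 587.5, 681.9 and 849.4 reads in siGLI1 and 254.8, 341.8 and 236.8 in siNT2 (1.34, limma adjusted p = 0.00607). These 4 calls held with each library left out in turn. With the GC trend removed, 12 of the 26 were lower (46.2%) and 4 higher (15.4%), against 16.7% and 17.4% of all genes.

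Among 8 tested transcription factor genes linked to cilia, 2 fell (25%) and 0 rose, where 2 had a higher value at an unadjusted p under 0.05. RFX2, an X-box binding factor, had 55.1, 41.9 and 47.4 reads in siGLI1 and 153.7, 162.3 and 146.7 in siNT2, with no overlap (-1.67, limma adjusted p = 0.00173), and the call held in each of the 6 fits. RFX5, best known for the control of MHC class II genes, fell by 0.66 (limma adjusted p = 0.0179), and lost the call without siGLI1 replicate 1 or 2 or siNT2 replicate 1 or 3. With the GC trend removed, 2 of the 8 were lower and 2 higher (25% each, against 16.7% and 17.4% of all genes), and the median was 0.05, against -0.17 as deposited. The 2 higher ones, named after their values were seen, were RFX3, another X-box binding factor, with groups apart (0.87 as deposited, limma adjusted p = 0.071, and 0.64 with the GC trend removed, limma adjusted p = 0.0225), and GLIS3 (0.56, limma adjusted p = 0.133, and 0.52, limma adjusted p = 0.0468).

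Of 13 genes listed as linked to cilium disassembly, which need not promote it, KCTD17 fell (-1.29, limma adjusted p = 0.0442). On the deposited values this is 7.69%, close to the share over all tested genes, and the median was -0.03. KCTD17 lost the call without siGLI1 replicate 1 or 2 or siNT2 replicate 1 or 2. With the GC trend removed, 3 of the 13 were lower (23.1%) and 2 higher (15.4%), against 16.7% and 17.4% of all genes. Among 8 multiciliated cell markers tested, SPAG6 rose by 1.76 and CAPS fell by 1.12 (limma adjusted p = 0.0221 and 0.035), and the median was 0.29. SPAG6 lost the call without siGLI1 replicate 1 or 2 or siNT2 replicate 2 or 3, and CAPS kept it without siGLI1 replicate 3 and lost it in the other 5 fits. With the GC trend removed, 4 of the 8 were higher (50%) and 1, CAPS, lower (12.5%). Besides SPAG6 the higher ones, named after their values were seen, were CCDC40 (limma adjusted p = 0.00476), TPPP3 (limma adjusted p = 0.0108) and DNAH5 (limma adjusted p = 0.0377).

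**Figure D5:**
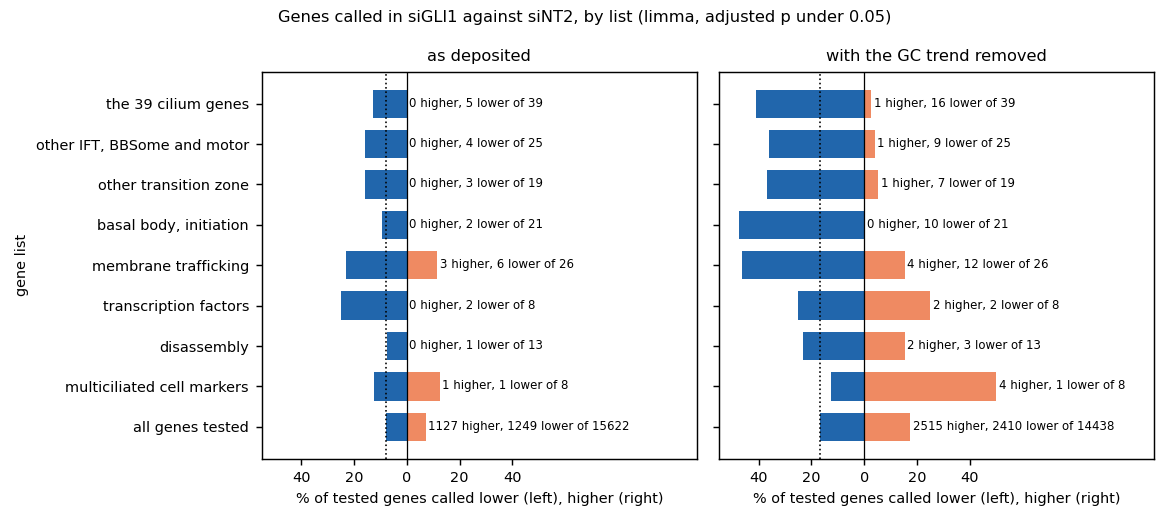
Share of tested genes called lower (left of 0) and higher (right of 0) in siGLI1 against siNT2, by gene list (y axis), from the deposited values (left panel) and with the GC trend removed (right panel). The dotted line is the share of all tested genes called lower, 8% on the left and 16.7% on the right, and 5 and 16 of the 39 cilium genes were called lower.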

How the data were processed

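RNA of 6 RMS13 libraries was sequenced. The submitters' processing notes name build hg19 and the tools DESeq2 2.11.40.6, Subread 1.6.4 (featureCounts), Bowtie2 2.3.3.1, Trim Galore 0.4.5 and bcl2fastq. How strand and multi-mapped reads were handled, and which annotation was used, is not given in the sources used. The authors deposited signal values, read counts divided by a size factor per library, with no length correction. In each library 100.0% of values were whole multiples of the value of 1 read (tolerance 0.01 reads), so whole reads were recovered. A count of 0 allows 3 reads, 2.39 to 3.29 deposited units (counting error only).

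Entrez IDs were named from RefSeq (GRCh38.p14), which matched 23696 of 25702 (92.2%), and GENCODE 29 gave transcript length and GC content (longest coding transcript). limma 3.58.1 (trended, group only) was run in R 4.3.3 on log2(value + 1) for the 15622 genes with a mean of 10 or more. Alternatives were edgeR 4.0.16, DESeq2 1.42.0, TMM scaling, a pseudocount of 8, other filters, the replicate block, a GC correction (lowess, span 0.3) and leaving out libraries. The limma, edgeR and DESeq2 fits were tested on simulated counts without a GC trend, so that test does not cover the GC trend of these libraries. Members and lists were chosen with earlier results of these data known. Full values are given for members that were called, had the 2 smallest p-values or the highest mean of their role, and for up to 4 called genes without overlap per other list. No libraries of a group agreed within sampling noise.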

Additional observations from a re-analysis of the deposited data

How the results depend on the processing

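The 5 lower calls were made by edgeR, TMM scaling, a pseudocount of 8 and no filter. A minimum mean of 50 left 4, since TMEM231 was no longer tested. The count of cilium genes called lower was 9 with DESeq2, 16 with the GC correction, 13 with the replicate block and GC correction, 10 with both high-GC libraries left out, and 1 (TCTN2) with the replicate block. It ranged from 1 to 7 with single libraries left out, and the count called higher from 0 to 1. The count called higher was 1 (KIF3A) with the GC correction, with the replicate block and GC correction and with both high-GC libraries left out. The median ranged from -0.36 to -0.26 with single libraries left out. Over all genes, 462 were called higher and 508 lower with the replicate block, 2515 and 2410 with the GC correction, 2012 and 1923 with both, 2236 and 2356 without both high-GC libraries, and 283 to 1562 higher and 358 to 1705 lower with single libraries left out. The cause of these shifts was not tested. Whether the replicate numbers pair the samples is not settled by the labels, which give same-numbered libraries a shared identifier stem of unstated meaning. Deviations of same-numbered libraries correlated at 0.49, -0.11 and -0.61 over genes, values that move with the GC trend of the libraries, and at 0.34, 0.02 and -0.39 after the GC correction, a check added after seeing the data. Before the correction, only siNT2 replicate 1 correlated best with its own number. The highest value was that of siGLI1 replicate 3 with siNT2 replicate 2, at 0.76 before and 0.55 after the correction.

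The genes that changed sign were not called. IFT27 was at 0.02 with edgeR, 0.01 with DESeq2 and 0.14 with the GC correction with or without the block. With the GC correction, with or without the block, IFT74 was at -0.17, BBS4 at -0.01, BBS5 at 0.05 and DYNC2H1 at -0.18. Without both high-GC libraries IFT74 was at -0.06 and DYNC2H1 at -0.06. With single libraries left out, the ranges were -0.27 to 0.18 for IFT27, -0.10 to 0.17 for IFT74, -0.15 to 0.10 for BBS5, -0.06 to 0.25 for IFT140, -0.03 to 0.74 for BBS10, -0.20 to 0.20 for DYNC2H1, -0.04 to 0.37 for KIF3B and -0.02 to 0.32 for CC2D2A. Counts under 60 per library, as for TMEM231 and IFT27, limit precision.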

Other observations

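The heptamer GCACCTC, picked in an earlier reading of these data, was present in the annotated 3' UTR of 1213 of 13131 tested genes (9.24%). Of tested genes with it 18.2% were called lower in siGLI1, against 7.06% of those without it. Because the heptamer was picked from these data, these shares do not test it, and 3' UTR length was not taken into account. The heptamer was in 2 of the 39 cilium genes (5.13%), BBS5 and KIF3B, and in 0 of the 5 that fell. With 5 genes, a count of 0 cannot be told from the 9.24% of tested genes. Among the further genes called lower, ARL2BP (-2.03) holds 1 copy, and TRAF3IP1, ADCY3, IQCE and RFX2 hold 0. The 39 transcripts had a median GC content of 48.4%, against 49.1% for all tested genes, and a median of 17 exons, against 8.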
